A study of Homo sapiens with 20 samples.

Results

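The GLI2 and INHBB locus is a stretch of human chromosome 2 (hg19, chr2:121000000-122000000) that holds GLI2, INHBB and all but the beginning of RALB. Its members are the anchor pairs, each a pair of 5 kb pieces of chromatin joined by a chromatin loop, with either anchor overlapping this stretch. There were 356 such anchor pairs among the 572000 in the union of 4 loop lists. The locus was selected on the z-scores of H4 88-1 against H4 (defined below), since it holds the anchor pair with the largest z-score of all merged pairs, and its values are therefore given as a description without a test. It was proposed as a place of nested loops around GLI2 in all 4 cell lines. In the lists, 2 loops lay side by side in all 4 cell lines, and a shorter loop summit inside the GLI2 loop was listed in H4 88-1 alone. With a summit radius of 50 kb in place of 25 kb, no nested summit remained there.

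Hi-C was performed in H4 and 42MGBA, human glioblastoma (GBM) cell lines that carry an endogenous STAG2 mutation, and in H4 88-1 and 42MGBA 53-1, derivatives in which that mutation had been corrected by gene editing and which are labelled STAG2-WT. In the names of the loop lists, WT instead marks the parental, STAG2-mutant lines. All 4 lines are cultured cells for which no treatment is given, and each corrected line is a single derivative, so that the correction and other features of that derivative cannot be told apart. For each cell line, 2 replicates were pooled by the authors into 1 list of the 300000 strongest anchor pairs with a signal called loop strength. Each value below is therefore 1 pooled value per cell line with no replicate error, and differences between cell lines describe these libraries. The lists hold no read counts, so the depth behind a value is unknown, and no expression values, so that cell type markers were not checked.

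GLI2 encodes a zinc finger transcription factor that activates target genes of Hedgehog signalling, a pathway that patterns the developing nervous system and drives a subset of brain tumors. INHBB encodes the beta B subunit of activin B and inhibin B, secreted ligands of the TGF-beta family, and RALB encodes a small GTPase of the Ras family. STAG2 is a subunit of cohesin, the ring complex that extrudes chromatin into loops until it meets obstacles such as the DNA-binding protein CTCF. Loop anchors throughout the genome are often CTCF sites.

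In the GENCODE annotation, RALB (ENSG00000144118.14_7, chr2:120997640-121052286), INHBB (ENSG00000163083.6_6, chr2:121103712-121109379) and GLI2 (ENSG00000074047.22_9, chr2:121493199-121750229) all lie on the plus strand. INHBB starts 51.4 kb past the end of RALB and 389 kb before the start of GLI2. The strongest anchor pair in H4, H4 88-1 and 42MGBA joined chr2:121450485-121455301 with chr2:121826898-121831894, with 376.5 kb between anchor midpoints. Its near anchor ended 37.9 kb upstream of the GLI2 start and overlapped the long noncoding RNA gene ENSG00000229774, and its far anchor began 76.7 kb past the GLI2 end in a stretch with no protein-coding gene. This loop thus held the whole of GLI2, 257 kb, with neither anchor in the gene. The other loop of all 4 lines joined chr2:121097203-121102097, which ends 1.615 kb before the INHBB start, with chr2:121431516-121436390, which ends 56.8 kb before the GLI2 start. The near anchor of the GLI2 loop began only 14.1 kb past the far anchor of the INHBB loop, so the loops were neighbours and neither lay inside the other. No listed anchor pair ran from INHBB to beyond the end of GLI2.

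The anchors were searched on both strands for exact matches of the 12-base core of the CTCF motif, and 6 of the 94 anchors of the locus held one (6.38%). Among all listed anchors the share was 3.46% of 10693 on chromosome 2 and 3.93% of 128561 in the genome. The sequences below are read from the hg19 genome in the 5′ to 3′ direction of the strand of the match, with the core in capitals and 20 bases on either side. They are shown because they lie at or near the summit anchors of the GLI2 loop, or at the summit inside it.
Upstream of GLI2, match 1 (chr2:121438012-121438063, minus strand): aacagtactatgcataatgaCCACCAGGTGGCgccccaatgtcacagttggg
Upstream of GLI2, match 2 (chr2:121444497-121444548, minus strand): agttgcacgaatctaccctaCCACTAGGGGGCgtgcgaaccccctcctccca
Inside GLI2 (chr2:121707136-121707187, minus strand): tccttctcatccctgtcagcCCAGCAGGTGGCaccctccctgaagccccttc
Beyond GLI2, exact match (chr2:121834692-121834743, plus strand): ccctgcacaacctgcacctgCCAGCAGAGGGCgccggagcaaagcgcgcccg
Beyond GLI2, match with 1 mismatch (chr2:121828712-121828763, minus strand): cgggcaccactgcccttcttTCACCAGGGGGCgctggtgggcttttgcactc
Both upstream matches read on the minus strand, in anchors between the far summit anchor of the INHBB loop and the near summit anchor of the GLI2 loop. The match inside GLI2 lies at the far anchor of the summit listed in H4 88-1 alone. The exact match shown beyond GLI2 lies in chr2:121831895-121836702, the anchor at which the loop of 42MGBA 53-1 was strongest. Exact matches on the minus strand in chr2:121856389-121860806 and chr2:122080199-122085023, further out, are not shown. The former is an outer far anchor of the GLI2 loop. With chr2:121450485-121455301 it had 4.81 in H4 88-1 and 5.04 in 42MGBA. The summit anchors chr2:121450485-121455301, chr2:121826898-121831894 and chr2:121097203-121102097 held no exact match. With 1 mismatch allowed, a setting chosen after seeing the data, each of these anchors held at least 1 match, and so did 53 of the 94 anchors of the locus (56.4%), against 27.7% of the listed anchors of chromosome 2 and 29.0% of those in the genome. At chr2:121450485-121455301 this gave a match on each strand, the pair overlapping each other. These matches are letters of the sequence, and CTCF binding was not measured.

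Of the 356 anchor pairs, 128 were listed in H4 against 322 in H4 88-1, and 189 in 42MGBA against 134 in 42MGBA 53-1. All 4 lists shared 68 of them. H4 88-1 alone held 132, 42MGBA alone held 15, 42MGBA 53-1 alone held 11, and none was listed in H4 alone. H4 88-1 thus had the most anchor pairs and H4 the fewest. How often pairs of the whole lists are shared or held by 1 line alone was not computed. The numbers above therefore only describe the locus. A list ends at its own lowest strength, which was 4.14 in H4 against 4.44 in H4 88-1, and 4.49 in 42MGBA against 4.28 in 42MGBA 53-1, so an unlisted pair is one below that value. The median strength of a whole list was 5.17, 5.52, 5.54 and 5.20 in the same order. Just outside the locus, the nearest listed pairs ended between 54.1 and 58.3 kb before it, and the nearest on the other side began between 143.0 and 152.8 kb past it, with strengths from 4.26 to 5.58.

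Joining anchor pairs whose anchors both lie within 10 kb of each other, a distance chosen after seeing the lists, gave 3 groups. The GLI2 loop held 221 anchor pairs, the INHBB loop 97, and a group on the far side of the GLI2 loop 38. The GLI2 loop had 111 listed pairs in H4 against 213 in H4 88-1, and 120 in 42MGBA against 57 in 42MGBA 53-1. The INHBB loop had 17, 71, 69 and 77 in the same order, so that the line with the fewest pairs was H4 for INHBB and 42MGBA 53-1 for GLI2.

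**Figure D1:**
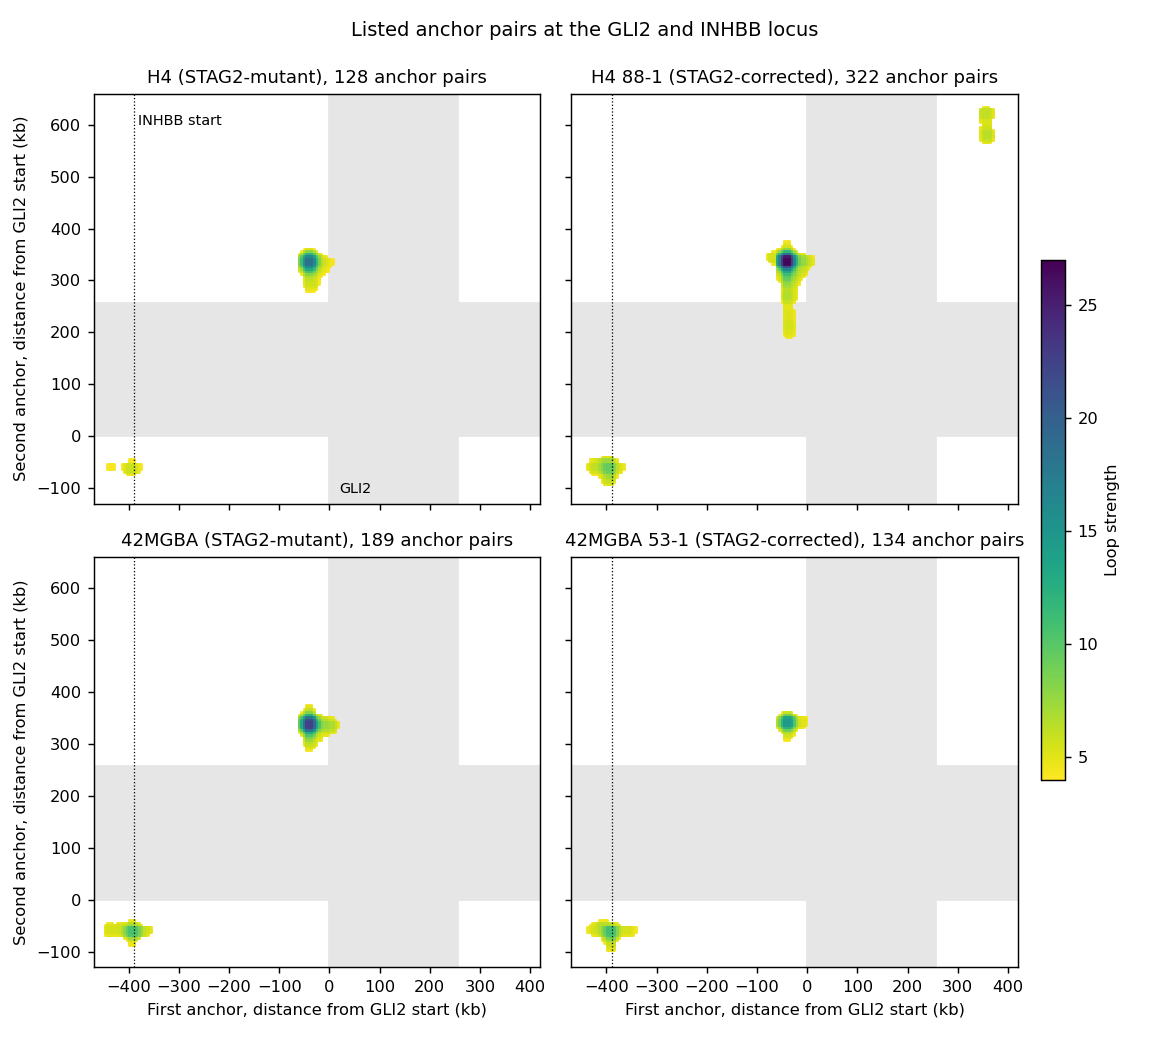
Each square is a listed anchor pair, placed by the distance in kb of its anchors from the GLI2 start and coloured by loop strength, in 1 panel per cell line. Grey bands mark the GLI2 gene body and the dotted line the INHBB start. The GLI2 and INHBB loops appear in all 4 panels. Pairs with the far anchor in the GLI2 gene body and the group of 38 pairs at the upper right appear only for H4 88-1. Near anchors overlapping GLI2 are listed in H4 (3 pairs), H4 88-1 (9 pairs) and 42MGBA (15 pairs).

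At the strongest GLI2 anchor pair, chr2:121450485-121455301 with chr2:121826898-121831894, the loop strength was 18.6 in H4 against 26.6 in H4 88-1, and 22.6 in 42MGBA against 12.5 in 42MGBA 53-1. These are among the strongest values of the lists, at rank 469 in H4, 19 in H4 88-1 and 145 in 42MGBA. The order of the levels put H4 88-1 first and 42MGBA 53-1 last, so that the corrected lines held the highest and the lowest value, with both mutant lines between them. In 42MGBA 53-1 the strongest pair, at rank 1464, used the next anchor outwards, chr2:121831895-121836702, and had a strength of 14.7. At this pair, 381.4 kb in size, H4 had 16.3, H4 88-1 had 25.4 and 42MGBA had 21.6.

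Seen from the shared near anchor, 16 far anchors were listed in H4 against 36 in H4 88-1, and 17 in 42MGBA against 10 in 42MGBA 53-1. Over the 10 far anchors listed in all 4 lines, the mean position weighted by strength, relative to the summit anchor and negative towards GLI2, was -2.38 kb for H4, -1.79 kb for H4 88-1, -0.662 kb for 42MGBA and 0.612 kb for 42MGBA 53-1. All of these shifts are smaller than 1 anchor. The weaker listed strengths reached further from the summit anchor on the GLI2 side than on the outer side. Right next to the summit anchor, the outer strength was the higher in all 4 lines. It was 16.3 against 16.1 in H4, 25.4 against 21.3 in H4 88-1, 21.6 against 18.4 in 42MGBA and 14.7 against 9.16 in 42MGBA 53-1. On the outer side, 42MGBA was close to H4 88-1 at chr2:121836703-121841604, with 18.4 and 18.5, against 12.02 in H4 and 13.5 in 42MGBA 53-1. The strength ratio of 42MGBA 53-1 to 42MGBA was 0.498 at chr2:121822091-121826897, the anchor next to the summit anchor on the GLI2 side, and 0.733 at chr2:121836703-121841604 on the outer side. The ratio of H4 88-1 to H4 at the same anchors was 1.32 and 1.54. Between these anchors the ratio of corrected to mutant strength was higher on the outer side in both systems. They are not equally far from the summit anchor, and 0.498 and 0.733 are the extremes of the 42MGBA ratios in this profile. At chr2:121831895-121836702, right next to the summit anchor on the outer side, the ratios were 0.680 in the 42MGBA pair and 1.56 in the H4 pair.

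**Figure D2:**
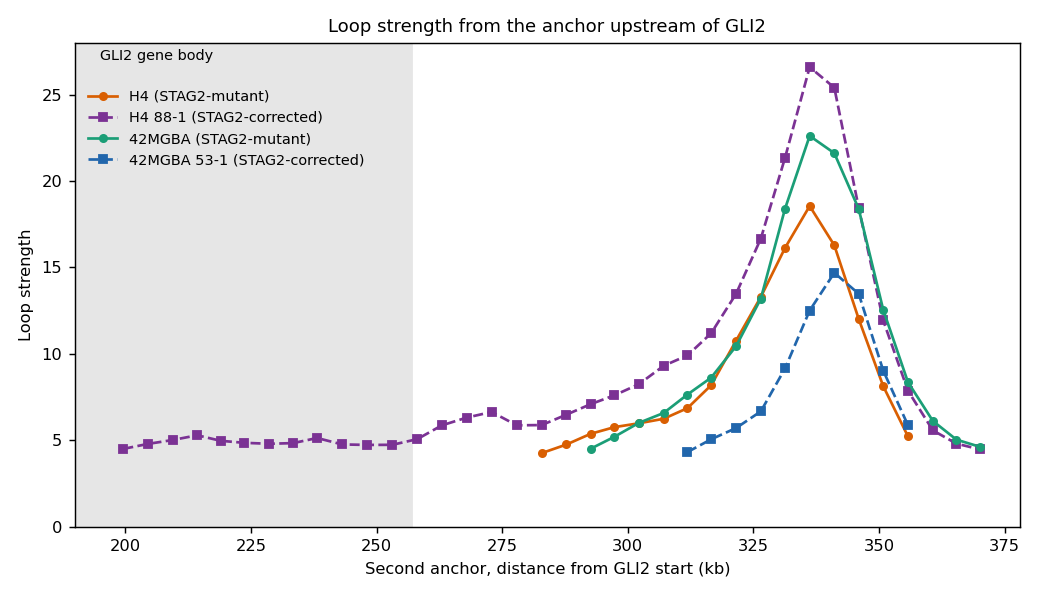
Loop strength of the anchor upstream of GLI2 (chr2:121450485-121455301) with each far anchor, plotted by the distance of the far anchor from the GLI2 start in kb, with 1 pooled value per cell line and no error bar. Lines join listed anchors. H4 88-1 is highest at the summit, 42MGBA 53-1 is lowest there and peaks 1 anchor further out, and only H4 88-1 extends into the shaded gene body.

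Nested anchor pairs inside the gene were found in H4 88-1. There, 33 pairs of the GLI2 loop had the midpoint of the far anchor within GLI2, and no such pair was listed in the other 3 lines. They ran from 3 neighbouring near anchors (chr2:121450485-121465059) to 13 far anchors (chr2:121685378-121748826), with strengths from 4.47 to 5.53 and a median of 4.84. These values are close to the lowest strength of the H4 88-1 list, 4.44, and the threshold of each list decides whether such pairs are seen. The strongest of them formed a separate summit, chr2:121455302-121460190 with chr2:121705042-121709951, 249.75 kb in size and overlapping coding sequence of GLI2. It lay inside the GLI2 loop, with the adjoining near anchor. In H4 88-1 a further summit of 6.34 lay inside a larger loop of 6.18 on the far side of the GLI2 loop. Both nestings rest on the summit radius of 25 kb. Within 50 kb, a pair of 5.87 (chr2:121450485-121455301 with chr2:121753756-121758613) exceeded the summit in GLI2. The summit of 6.34 likewise exceeded the loop of 6.18, so no nested summit remained. The anchor pairs whose interval held the whole of GLI2 numbered 110 in H4 against 175 in H4 88-1, and 110 in 42MGBA against 57 in 42MGBA 53-1.

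To compare the lines of an isogenic pair, the 100000 strongest anchor pairs of each line were merged, an unlisted pair was given the lowest strength of its list, and strength in the corrected line was regressed on that in the mutant line through the origin. A merged pair was called gained when the z-score of its residual was above 1.96, and lost when it was below -1.96. The z-score ranks the pairs of these libraries and is no test against replicates. In the H4 pair, 22 of the 117 merged pairs of the locus were gained (18.8%), where 1.94% of all merged pairs were gained, and none was lost, where 2.17% of all were lost. This comparison chose the locus, so nothing is read from that share. All 117 had a higher value in H4 88-1, with a median log2 ratio of 0.53 (1.44-fold), against 0.14 over chromosome 2 and 0.074 over the genome. The value in H4 was set to the lowest of its list for 18 of them, whose ratios are lower bounds.

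In the 42MGBA pair, 20 of the 97 merged pairs were lost in 42MGBA 53-1 (20.6%), where 2.45% of all merged pairs were lost. None was gained, where 1.61% of all were gained. Neighbouring pairs are not independent, and the locus was chosen with earlier results of these data known. Nothing is read from that share either. Of the 97, 78 had a lower and 19 a higher value in 42MGBA 53-1, with a median log2 ratio of -0.45 (0.733-fold) against -0.080 over chromosome 2 and -0.11 over the genome. This median was -0.28 with the 200000 strongest pairs of each line merged. The value in 42MGBA 53-1 was set to the lowest of its list for 13 of the 97 and that in 42MGBA for 1, so that these ratios are bounds. At the main setting the calls lay in the GLI2 loop in both systems. With the 200000 strongest pairs of each line merged, 10 of the 53 merged pairs of the INHBB loop were also gained in the H4 pair. The calls described next are those of the main setting. All 22 gained pairs and all 20 lost pairs joined chr2:121436391-121470059 with anchors beyond GLI2. Of these, 13 pairs were in both sets, which is 59.1% of the gained and 65.0% of the lost. The same overlap among all merged pairs was not computed. The residual is in units of strength, so the calls of both fits favour the strong pairs of this loop. Nothing is read from the overlap. By value, all 90 merged pairs of the GLI2 loop in the H4 pair were higher in the corrected line. All 64 in the 42MGBA pair were lower in the corrected line. An unlisted value was set to the lowest of its list for 4 of the 90 and 13 of the 64. By these values the same loop was stronger in the corrected line of one system and weaker in that of the other.

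At the strongest anchor pair, the strength rose from 18.6 to 26.6 between H4 and H4 88-1 (1.43-fold, z-score 4.37) and went from 22.6 to 12.5 between 42MGBA and 42MGBA 53-1 (0.553-fold, z-score -5.02, the lowest of the locus). The largest z-score of the locus in the H4 pair, 5.05, was that of the neighbouring pair at which 42MGBA 53-1 was strongest, where the 42MGBA pair had a z-score of -3.08. At the other end, the lowest z-score of the locus in the H4 pair was 0.38, at a GLI2 loop pair with 5.71 in H4 and 6.71 in H4 88-1. The largest in the 42MGBA pair was 1.32, at the INHBB start, with 5.34 in 42MGBA and 7.07 in 42MGBA 53-1. The residual is in units of strength, so strong pairs pass the cutoff at smaller ratios. With a z-score of the log2 ratio, the strongest pair had 1.25 in the H4 pair, and 8 pairs of the locus passed the cutoff there, 4 in the GLI2 loop and 4 in the INHBB loop. Just inside the cutoff in the H4 pair lay a pair with 8.14 in H4 and 11.9 in H4 88-1 (z-score 2.01), and just outside it a pair with 13.9 and 17.7 (z-score 1.92). In the 42MGBA pair these were 13.2 and 8.89 (z-score -1.97) and 18.5 and 13.8 (z-score -1.91).

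**Figure D3:**
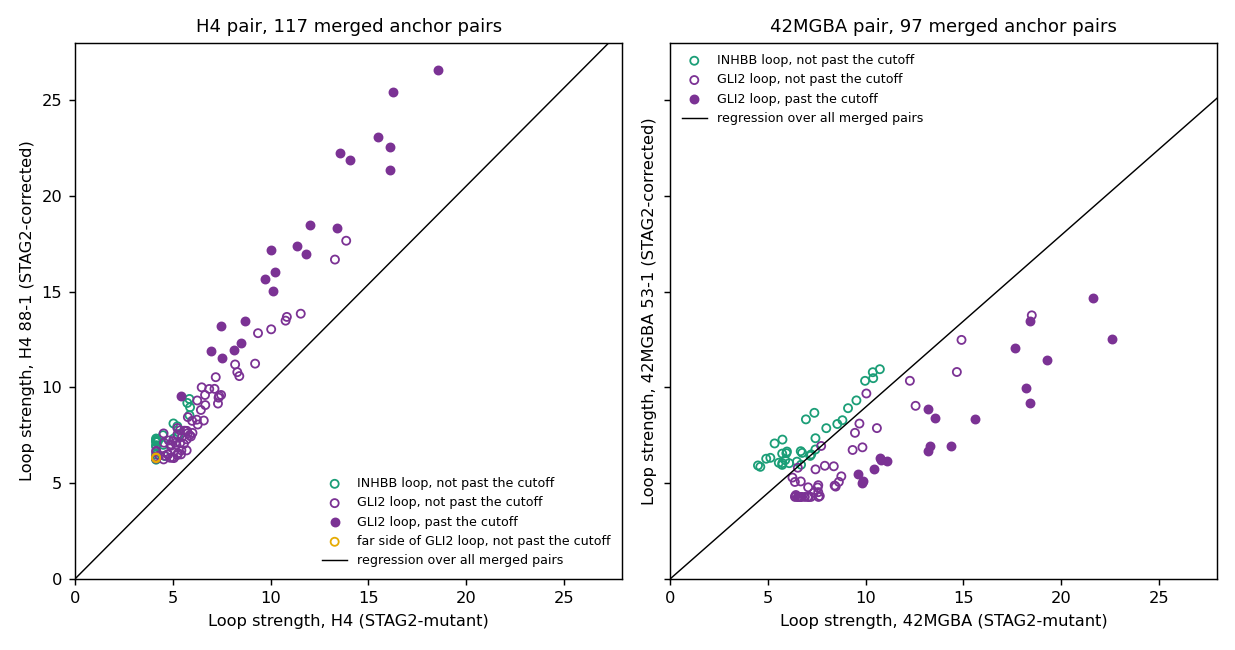
Loop strength in the STAG2-corrected line against the STAG2-mutant line for the merged anchor pairs of the locus, in the H4 pair (left) and the 42MGBA pair (right). Filled points are past the z-score cutoff, unlisted pairs are drawn at the lowest strength of their list, and the line is the regression over all merged pairs. GLI2 loop points lie above the line in the H4 pair and mostly below it in the 42MGBA pair. INHBB loop points of the 42MGBA pair lie mostly above it, none past the cutoff.

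The opposite direction did not depend on unlisted pairs. Of the GLI2 loop, 52 anchor pairs were listed in all 4 lines, with a median strength of 8.29 in H4 against 11.9 in H4 88-1, and 9.82 in 42MGBA against 6.25 in 42MGBA 53-1. All 52 were stronger in H4 88-1 than in H4, with a median log2 ratio of 0.53 and a range from 0.26 to 0.82. None of the 52 was stronger in 42MGBA 53-1 than in 42MGBA, with a median of -0.57 and a range from -1.05 to -0.052. These 52 pairs are neighbours within 1 loop and are not independent measurements. Because the locus was selected on the H4 pair, the direction in that pair restates the selection.

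At the start sites of GLI2 itself, 10 anchor pairs were listed in at least 1 line, counting anchors within 3 kb of a start. GENCODE gives GLI2 7 start sites, and all 10 pairs lay at chr2:121488898-121498218, which holds the 2 most upstream of them, 121493199 and 121493444. Their far anchors lay beyond the gene, between 121817267 and 121841604, the same stretch that the GLI2 loop uses. H4 listed 3 of them (4.17 to 4.42), H4 88-1 listed 7 (4.66 to 6.18), 42MGBA listed all 10 (4.69 to 6.88) and 42MGBA 53-1 listed none. At the pair of chr2:121488898-121493292 with chr2:121826898-121831894 the strength was 4.42 in H4, 6.18 in H4 88-1 and 6.63 in 42MGBA. At the pair of chr2:121493293-121498218 with the same far anchor it was 4.28, 5.53 and 6.88. The start-site pairs listed in H4 were thus higher in H4 88-1, as the GLI2 loop was, and none reached the list of 42MGBA 53-1, in which the GLI2 loop was weakest but listed. 42MGBA was above H4 88-1 at 6 of the 7 pairs listed in both, and below it at the summit. None of the 10 was among the merged pairs of the H4 pair, and 2 were among those of the 42MGBA pair, with z-scores of -1.32 and -1.17.

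At INHBB the lines took another order. The anchor pair of chr2:121097203-121102097 with chr2:121431516-121436390, 334.3 kb in size, had a strength of 5.85 in H4 against 9.39 in H4 88-1, and 10.7 in 42MGBA against 10.9 in 42MGBA 53-1. H4 was lowest, and both 42MGBA lines were above both H4 lines and close to each other. In H4 the strongest pair used the next anchor inwards, with 5.88 at chr2:121426504-121431515, where H4 88-1 had 8.96, 42MGBA had 10.4 and 42MGBA 53-1 had 10.8. The neighbouring near anchor, chr2:121102098-121107036, holds the INHBB start and coding sequence. With the same far anchor chr2:121431516-121436390 it had 5.23 in H4 against 7.96 in H4 88-1, and 10.4 in 42MGBA against 10.5 in 42MGBA 53-1, so the order did not change.

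Within 3 kb of the INHBB start, 21 anchor pairs were listed in at least 1 line, 6 in H4 against 18 in H4 88-1, and 15 in 42MGBA against 20 in 42MGBA 53-1. Their far anchors lay between 121397094 and 121450484, upstream of GLI2. None had a far anchor in GLI2. In the H4 pair, all 9 merged INHBB pairs had a higher value in H4 88-1, with a median log2 ratio of 0.68, 3 of them against the lowest strength of the H4 list. No INHBB pair passed the cutoff, and the z-scores ran from 1.10 to 1.89. The highest of these, that of the strongest INHBB pair, became 2.37 with the 200000 strongest pairs of each line merged, 1.98 with only pairs listed in both lines and 1.97 among pairs of similar size. In the 42MGBA pair, 10 of 13 merged INHBB pairs had a higher and 3 a lower value in 42MGBA 53-1, with a median log2 ratio of 0.058 and z-scores from -0.15 to 1.32.

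**Figure D4:**
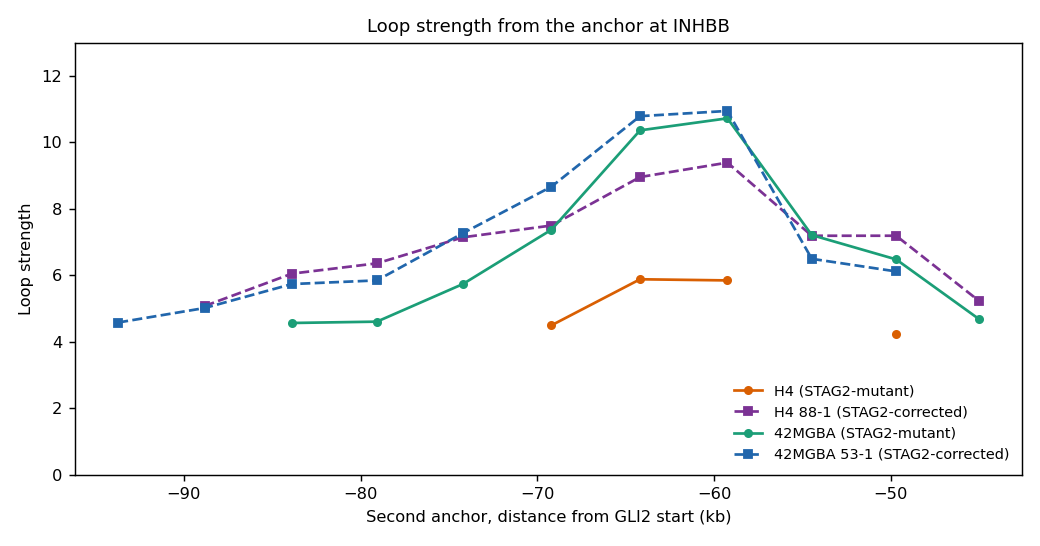
Loop strength of the anchor next to INHBB (chr2:121097203-121102097) with each far anchor, by the distance of the far anchor from the GLI2 start in kb, with 1 pooled value per cell line. A break in a line marks an unlisted anchor. H4 peaks at 5.88, below the other 3 lines, which peak between 9.39 and 10.9.

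Over the whole INHBB loop, 16 anchor pairs were listed in all 4 lines, with a median strength of 4.81 in H4 against 7.40 in H4 88-1, and 8.27 in 42MGBA against 8.18 in 42MGBA 53-1. All 16 were stronger in H4 88-1 than in H4, with a median log2 ratio of 0.61. In the 42MGBA pair 6 of the 16 were stronger in 42MGBA 53-1, with a median log2 ratio of -0.019. The H4 lines thus differed at the INHBB loop by about as much as at the GLI2 loop, whereas the 42MGBA lines differed at the GLI2 loop and little at the INHBB loop. With 1 list per line, this difference between the loops was not tested.

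The bases just upstream of the most upstream GLI2 start and of the INHBB start are shown because anchors of the start-site pairs above cover them, chr2:121488898-121493292 for GLI2 and chr2:121102098-121107036 for INHBB. The other start-site pairs used the anchor next to these, which does not hold the bases shown. They are read from hg19, on the strand of the genes, with CpG dinucleotides in capitals.
GLI2 upstream (chr2:121492949-121493198, plus strand): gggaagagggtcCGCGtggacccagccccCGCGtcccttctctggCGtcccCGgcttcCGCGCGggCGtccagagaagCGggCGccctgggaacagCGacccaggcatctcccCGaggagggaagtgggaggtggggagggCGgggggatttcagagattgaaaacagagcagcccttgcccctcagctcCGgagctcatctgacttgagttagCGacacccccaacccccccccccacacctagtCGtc
INHBB upstream (chr2:121103462-121103711, plus strand): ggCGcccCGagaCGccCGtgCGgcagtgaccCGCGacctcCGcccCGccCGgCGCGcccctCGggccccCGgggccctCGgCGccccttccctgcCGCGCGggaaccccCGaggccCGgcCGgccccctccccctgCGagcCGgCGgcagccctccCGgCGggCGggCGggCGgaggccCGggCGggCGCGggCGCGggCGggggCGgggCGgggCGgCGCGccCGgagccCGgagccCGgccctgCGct
Upstream of INHBB, these 250 bases held 46 CpG dinucleotides at 89.6% G and C, and those of GLI2 held 18 at 68.0%. Among the upstream stretches of the same length of 35116 RefSeq genes on GRCh38, 0.413% had at least as many CpG dinucleotides as INHBB and 36.8% at least as many as GLI2, with a median of 11. The INHBB stretch matched the INHBB entry of that set. No such match was found for the GLI2 stretch, so the shares of these genes are not strictly comparable. Neither stretch held an exact match of the CTCF core.

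RALB had no anchor pair at any of its 8 start sites in any of the 4 lines. The nearest anchor of the locus, chr2:121048555-121053499, lay 37.5 kb from the closest start and overlapped the last part of the gene with coding sequence. It was listed in 42MGBA alone, in 3 pairs of 4.55, 4.73 and 5.03 with far anchors upstream of GLI2. The listed anchors thus touched RALB only at its 3′ end.

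On the far side of the GLI2 loop, the 38 anchor pairs listed in H4 88-1 alone joined chr2:121841605-121860806 with chr2:122060581-122124093. Their strengths ran from 4.61 to 6.34 with a median of 5.18. Of these, 17 had an anchor in CLASP1, which encodes a protein that stabilizes the plus ends of microtubules, and none lay within 3 kb of a start site of CLASP1 or of TFCP2L1, a transcription factor gene located between the anchors. Only 2 of the 38 were among the merged pairs, with z-scores of 1.09 and 1.11. Their near anchors overlapped the outermost far anchors of the GLI2 loop in H4 88-1, which reached 121865682, so that this stretch carried loops to both sides.

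Among windows of 1000 kb with at least 100 listed pairs in either line of a pair, 25 of 1298 had a higher ratio than the locus in the H4 pair, where the ratio of listed pairs of H4 88-1 to H4, with 1 added to each count, was 2.50. The locus was selected on the H4 pair, so that this position restates the selection. In the 42MGBA pair the ratio of 42MGBA 53-1 to 42MGBA was 0.711, and 282 of 1188 windows had a lower one. The ratio of the median window was 0.972 for H4 88-1 over H4 and 0.979 for 42MGBA 53-1 over 42MGBA.

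Other genes of the pathways of GLI2, INHBB and RALB were examined for loops at their start sites, with GLI2 and INHBB counted in their lists. Merged loops were found at 7 of 22 Hedgehog genes in the H4 pair, and at 10 of them in the 42MGBA pair. Of the 148 loops in the H4 pair, none was gained and 1 was lost, at GLI3, the GLI family member that acts mainly as a repressor, with 14.6 in H4 and 11.7 in H4 88-1 (z-score -2.03). None of the 146 loops in the 42MGBA pair was called. Over all merged pairs, 1.94% were gained and 2.17% lost in the H4 pair, and 1.61% were gained and 2.45% lost in the 42MGBA pair, so that few calls would be found in lists of this size at the background share. Over the Hedgehog list the median log2 ratio was 0.062 for H4 88-1 over H4 and -0.025 for 42MGBA 53-1 over 42MGBA.

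Of 18 activin and inhibin genes, 9 had merged loops in each pair. Of the 290 loops in the H4 pair, 2 were gained and 3 were lost. The gained loops were at ACVR1, a type I receptor gene, with 4.44 in H4 and 8.14 in H4 88-1 (z-score 2.01), and at SMAD3, which encodes a signal transducer of activin, with 7.83 in H4 88-1 and none listed in H4 (z-score 2.00). The lost loops were all at INHBA, the gene of the beta A subunit, the strongest change being from 16.4 to 12.8 (z-score -2.50). Of the 319 loops in the 42MGBA pair, 8 were gained, 5 at INHBA and 3 at BAMBI, a pseudoreceptor gene, and 7 were lost, 6 at TGFBR3, a coreceptor gene, and 1 at INHBA. The median log2 ratio of this list was 0.053 for H4 88-1 over H4 and -0.016 for 42MGBA 53-1 over 42MGBA. Of 14 genes of the Ral pathway, 4 had merged loops in each pair, and none of the 65 loops in the H4 pair or the 42 in the 42MGBA pair was called, numbers in which the same background shares give few calls. In the activin and inhibin list, 0.690% of loops were gained and 1.03% lost in H4 88-1, both under the background, and 2.51% were gained and 2.19% lost in 42MGBA 53-1, against a background of 1.61% and 2.45%. No call was possible at the GLI2 start sites in the H4 pair, where none of their pairs was merged.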

How the data were processed

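The deposited signal values, called loop strength, were made by the authors from Hi-C libraries (Arima Hi-C+ kit). Reads were trimmed, aligned to hg19 with Bowtie, stripped of duplicates, assigned to 5 kb anchors, corrected for bias with HiCorr and enhanced with DeepLoop, with 2 replicates pooled per cell line. The values are thus smoothed and corrected, so that neighbouring anchor pairs are not independent, and they carry no counts, depth or replicate error. Tool versions are not given in the sources used here.

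Anchor pairs were taken from the 4 lists by position. A loop summit is the strongest listed pair within 25 kb at both anchors. Genes came from GENCODE release 44 lifted to hg19, with a gene counted when a start lay within 3 kb of an anchor. For each isogenic pair the regression described above was fitted over all merged pairs (129476 in the H4 pair, 131211 in the 42MGBA pair), with slopes of 1.02 and 0.897. Named were the 3 genes, the summits, the members with the largest and lowest z-score, the strongest start-site pairs, and pathway genes with a called loop. Other pairs were named after their values were seen. The members and gene lists were chosen with earlier results of these data known. The z-score calculation was tested on simulated data. Software was Python 3.11.15, pandas 2.3.3, numpy 2.4.6, pysam 0.24.0, matplotlib 3.10.9 and scipy 1.17.1. The 12 RNA-seq samples were not analysed here.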

Additional observations from a re-analysis of the deposited data

Results flagged for a closer look

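At the strongest anchor pair around GLI2, the corrected line differed from the mutant line in opposite directions in the H4 and 42MGBA systems. The log2 ratio of corrected to mutant strength was 0.52 for H4 88-1 over H4 and -0.85 for 42MGBA 53-1 over 42MGBA. The median log2 ratio over the 52 anchor pairs of this loop listed in all 4 lines was 0.53 for H4 88-1 over H4 and -0.57 for 42MGBA 53-1 over 42MGBA. With 1 pooled list per cell line the difference between the systems was not tested. The H4 direction restates the selection of the locus, which was made on the H4 pair.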

How the results depend on the processing

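No paired analysis was possible because the replicates of a cell line were pooled by the authors into 1 list, and for the same reason no replicate could be left out. Of 88 values recomputed under other settings, 69 kept their direction and side of the cutoff or stayed close to the value reported. Closeness was judged loosely for counts and medians. For example, 30 lost pairs against 20 in the 42MGBA pair, and a median of -0.28 against -0.45, counted as close. No z-score or median log2 ratio changed sign, while many of the 88 are counts, which have no sign. Among the 100000 strongest pairs of each list, the locus held 54 pairs in H4 against 117 in H4 88-1, and 83 in 42MGBA against 63 in 42MGBA 53-1. The summits of H4 88-1 numbered 3 in place of 5 with a radius of 50 kb. The summit inside GLI2 and the larger far-side loop of 6.18 dropped out, so no summit nested in another remained. The gained pairs of the H4 pair numbered 22, but 8 with a z-score of the log2 ratio and 40 with the 200000 strongest pairs merged, and the lost pairs of the 42MGBA pair numbered 20, but 12 with an intercept. With an anchor distance of 10 kb from a start in place of 3 kb, GLI2 had 30 pairs and INHBB 41, and with 0 kb INHBB had 10. Anchors with the CTCF core numbered 53 with 1 mismatch allowed. At the strongest pair of 42MGBA 53-1, the z-score with the log2 ratio was 1.61 for H4 88-1 over H4 and -1.25 for 42MGBA 53-1 over 42MGBA, and with an intercept -0.98 in the 42MGBA pair. The cause of these changes was not tested. The median log2 ratio of the locus in the 42MGBA pair shrank from -0.45 to -0.28 with the 200000 strongest pairs merged and to -0.29 with the median of pairs of similar size subtracted, and it kept its sign under every alternative run in both systems.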
